A study of Homo sapiens with 6 samples.

Results

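The Rab genes encode small GTPases that mark the membranes of a cell and direct the vesicles that move between them. They were taken as every gene whose symbol is RAB followed by a number and at most 1 further letter, which gave 64 of the 60666 genes listed. The rule reads the symbol alone, and the family was picked for description with earlier results of these data known. RNA was measured in HCT116 cells, a human colorectal carcinoma line labelled wild type, and in DNMT3B KO cells, which were derived from HCT116 and lack the de novo DNA methyltransferase DNMT3B. Each cell line had 3 libraries, neither line was treated, and both were grown in the same medium. Whether the 3 libraries of each line were separate cultures is not stated in the labels, and the p-values therefore cover the spread among libraries, which may be technical. The knockout is also a single derived line, so that loss of DNMT3B and any other difference acquired during its derivation cannot be told apart.

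A Rab protein carries prenyl groups that anchor it in a membrane and switches between a form bound to GTP and a form bound to GDP. Exchange factors load it with GTP, and in this form it recruits effectors such as tethers, motor adaptors and fusion factors. GTPase activating proteins then switch it off, and GDI proteins extract it from the membrane for another round. Different Rabs mark different stations, among them the endoplasmic reticulum and Golgi, early, recycling and late endosomes, secretory granules and the base of the primary cilium. Many exist as close paralogs, and cells differ in which paralog they use.

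Between 55436267 and 68274783 estimated counts were assigned per library. The Rab genes together took between 0.2705% and 0.2903% of them. DNMT3B itself reached 38.5, 30.1 and 39.5 CPM (counts scaled to the normalised size of the library) in HCT116 replicates 1, 2 and 3, against 2.54, 2.87 and 2.83 CPM in DNMT3B KO replicates 1, 2 and 3 (log2 fold change −3.71, adjusted p = 2.5e-06). Of 8 colorectal epithelial markers, 6 reached a mean of 1 CPM in HCT116 and 7 did so in DNMT3B KO, while LGALS4 was close to 0 in both lines.

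Of the 64 Rab genes, 52 had enough counts to be tested, and 19 of these differed between the lines. They comprised 8 that were higher in DNMT3B KO cells and 11 that were lower, while 33 did not pass the test. A gene was called at a Benjamini-Hochberg adjusted p under 0.05 in edgeR's quasi-likelihood test across all tested genes. The Rab share called was 36.5%, beside 28.1% of all 16959 tested genes. In separate directions, 15.4% of the tested Rab genes were higher and 21.2% lower, beside 12.9% and 15.1% of all tested genes. The change was at least 1.5-fold for 12 of the 19 called genes, or 23.1% of those tested, beside 19.6% of all tested genes. The median log2 fold change over the tested Rab genes was −0.10, beside −0.001 over all tested genes, with 51.9% showing no overlap between the libraries of the 2 lines, beside 45.9% of all tested genes. The number of Rab genes called higher was 5, 4 and 5 without HCT116 replicate 1, DNMT3B KO replicate 1 and DNMT3B KO replicate 2. Over all fits without 1 library it ranged from 4 to 10, and the number called lower from 9 to 15. Calls over all genes ranged from 3049 to 5924 in these fits, against 4761 with all libraries. The Rab shares above exceeded their backgrounds by a few genes at most, and the differences described below are those of single genes. Because these are bulk libraries, less RNA per cell and fewer cells expressing a gene cannot be told apart.

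**Figure D1:**
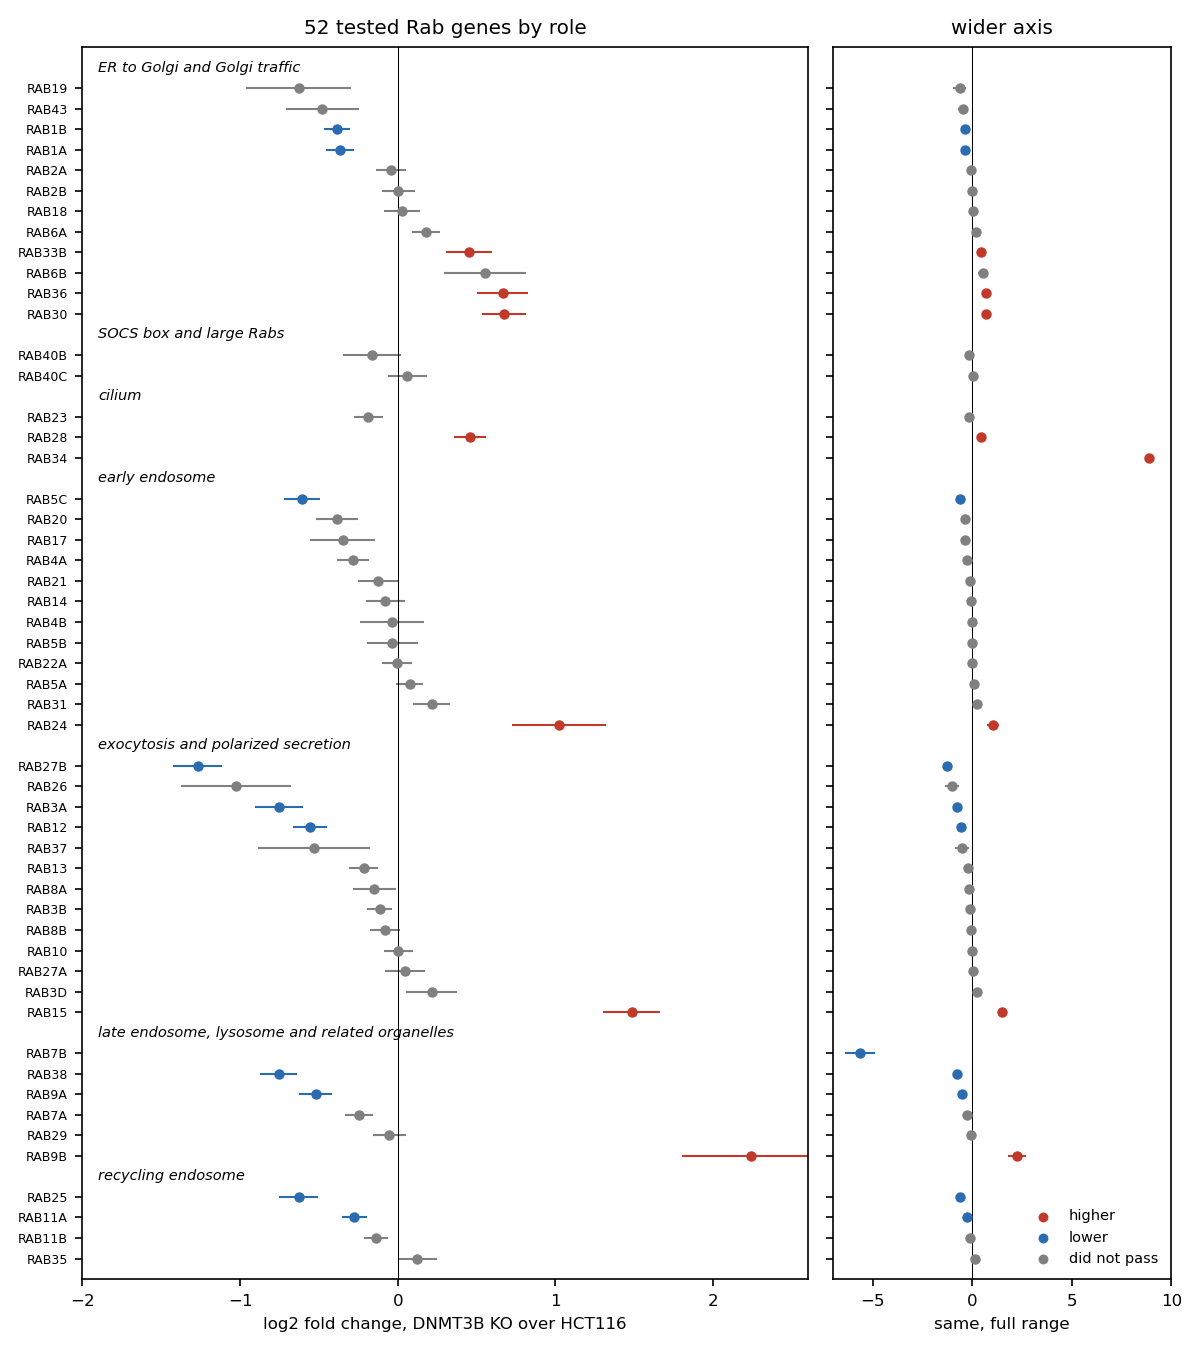
Log2 fold change of each of the 52 tested Rab genes, DNMT3B KO over HCT116, grouped by role, with bars of 1 standard error. The left panel covers the range of most genes, and the right panel repeats all of them on a wider axis, where RAB34 lies at 8.86 and RAB7B at −5.66, a fitted value that depends on the prior count. Red points are called higher, blue points are called lower and grey points did not pass.

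The remaining 12 Rab genes had too few counts for a test. RAB41 and RAB42 had 0 counts in all 6 libraries. For the other untested genes (RAB1C, RAB32, RAB33A, RAB39A, RAB39B, RAB3C, RAB40A, RAB44, RAB6C and RAB6D) no library held more than 9 counts, and the highest mean was 0.0977 CPM, for RAB6C. A Rab with 3 counts in a library would lie between 0.0416 and 0.0595 CPM, and expression under that level was not detectable at this depth. RAB7B and RAB9B passed the filter on low counts only through the line in which they were higher, and thus had to differ. Of the other 50 tested Rab genes, 17 were called (34%). RAB40B and RAB40C, Rabs that carry a SOCS box for ubiquitin ligases, did not pass (log2 fold changes −0.16 and 0.06).

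The start sites of RAB34 and RAB25 are shown with that of RAB11A, a close relative of RAB25, because the first 2 genes moved in opposite directions between lines that differ in a DNA methyltransferase. The methylated base in these cells is mainly the cytosine of a CpG, so CpG positions are given in capitals and all other bases in lower case. Each sequence is 300 bases, from 250 before to 50 after an annotated transcript start, from RefSeq on GRCh38.p14, read 5′ to 3′ on the strand of the gene. RNA-seq does not measure methylation, and none is reported for these windows here. The first 2 lines are the innermost and outermost of 3 annotated RAB34 starts, which do not overlap each other.
RAB34, inner start, chr17:28717819-28718118, minus strand: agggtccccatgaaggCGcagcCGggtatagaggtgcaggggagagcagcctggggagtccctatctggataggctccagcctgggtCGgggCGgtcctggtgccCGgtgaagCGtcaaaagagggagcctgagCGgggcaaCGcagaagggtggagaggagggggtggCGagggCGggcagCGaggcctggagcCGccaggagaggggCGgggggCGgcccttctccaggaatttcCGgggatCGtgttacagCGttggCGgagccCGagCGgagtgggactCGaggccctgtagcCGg
RAB34, outer start, chr17:28718219-28718518, minus strand: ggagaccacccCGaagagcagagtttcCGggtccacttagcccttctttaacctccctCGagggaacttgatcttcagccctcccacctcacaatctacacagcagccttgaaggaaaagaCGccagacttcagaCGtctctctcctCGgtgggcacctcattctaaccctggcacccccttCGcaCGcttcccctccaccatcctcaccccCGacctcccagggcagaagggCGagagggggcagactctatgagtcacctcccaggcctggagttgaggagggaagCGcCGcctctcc
RAB25, chr1:156060910-156061209, plus strand: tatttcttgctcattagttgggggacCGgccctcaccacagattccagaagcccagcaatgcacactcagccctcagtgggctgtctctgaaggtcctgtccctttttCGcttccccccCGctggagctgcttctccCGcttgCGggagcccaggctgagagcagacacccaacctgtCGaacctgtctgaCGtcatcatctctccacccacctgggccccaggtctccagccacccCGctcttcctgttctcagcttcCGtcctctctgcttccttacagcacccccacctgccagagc
RAB11A, chr15:65869241-65869540, plus strand: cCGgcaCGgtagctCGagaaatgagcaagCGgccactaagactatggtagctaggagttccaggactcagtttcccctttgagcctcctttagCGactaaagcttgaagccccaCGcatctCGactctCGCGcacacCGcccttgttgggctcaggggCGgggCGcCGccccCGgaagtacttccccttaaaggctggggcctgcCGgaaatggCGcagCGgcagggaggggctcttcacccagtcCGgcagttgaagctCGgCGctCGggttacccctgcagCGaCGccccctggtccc
Among 35116 such windows the median number of CpGs (the letters CG, which read alike on both strands) was 14. The inner RAB34 window held 22, and 37.7% of all windows held at least as many. The outer RAB34 window held 12, a number reached by 53.1% of windows, and the RAB25 window held 9, reached by 58.4%. The RAB11A window held 23, reached by 35.8% of windows. Over the 50 Rab genes with a window, the median CpG number of the richest window was 31 for 5 genes called higher, 26 for 8 called lower, 30 for 29 that did not pass and 15.5 for 8 that were not tested.

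RAB34 showed the largest increase of any Rab gene, from near the detection limit in HCT116 to one of the most abundant Rab transcripts in DNMT3B KO cells. RAB34 acts in the assembly of the primary cilium, where it is needed for the ciliary vesicle that forms around the mother centriole, and in the positioning of lysosomes. The gene (ENSG00000109113, chr17:28714281-28718429, minus strand, hg38) had 12, 24 and 17 counts in HCT116 replicates 1, 2 and 3, against 9647, 8557 and 8871 counts in DNMT3B KO replicates 1, 2 and 3. These correspond to 0.181, 0.377 and 0.337 CPM against 133.8, 143.5 and 135.2 CPM. Every DNMT3B KO library lay far above every HCT116 library. The DNMT3B KO libraries lay close together, and HCT116 replicate 1 was the lowest of its line.

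The mean rose from 0.298 ± 0.104 CPM (SD, n = 3) to 137.5 ± 5.28 CPM, a log2 fold change of 8.86 with a standard error (SE) of 0.20 (adjusted p = 1.9e-07). Only 8 of the 16959 tested genes had a higher log2 fold change. Per kilobase of exon, the level of RAB34 rose from 0.0903 to 41.6 CPM per kb, and its rank among the Rab genes moved from 51 to 3. All 50-base stretches of its exons were unique among annotated transcripts, so that the counts are not shared with a paralog. Neither neighbouring gene showed a rise that passed the test. PROCA1, on the side of lower coordinates, had 0.106 ± 0.0541 CPM in HCT116 cells and 0.184 ± 0.0490 CPM in DNMT3B KO (log2 fold change 0.74, adjusted p = 0.29), and the ribosomal protein gene RPL23A was lower in DNMT3B KO (log2 fold change −0.38, adjusted p = 0.036).

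The other Rabs that were grouped under the cilium moved little. RAB28, which travels with the transport machinery of the cilium, had 16.4, 16.1 and 15.1 CPM in HCT116 and 22.0, 20.7 and 22.6 CPM in DNMT3B KO. All DNMT3B KO libraries were above all HCT116 libraries, and the log2 fold change was 0.46 (SE 0.10, adjusted p = 0.012), although the adjusted p was 0.054 without DNMT3B KO replicate 1 and 0.057 without replicate 3. RAB23, a brake on Hedgehog signalling, did not pass, with 26.0 ± 1.05 CPM in HCT116 cells and 22.9 ± 0.602 CPM in DNMT3B KO (adjusted p = 0.17).

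RAB36, the closest relative of RAB34, was already expressed in HCT116 and rose modestly. Its libraries had 9.32, 7.11 and 9.66 CPM in HCT116 and 13.6, 15.4 and 12.4 CPM in DNMT3B KO. The groups did not overlap, and the log2 fold change was 0.67 (SE 0.16, adjusted p = 0.018). The call was lost without HCT116 replicate 1 (adjusted p = 0.052), DNMT3B KO replicate 1 (0.061) or DNMT3B KO replicate 2 (0.082). Within the pair, RAB34 made up 3.06%, 7.94% and 5.38% of the summed level per kilobase in HCT116 replicates 1, 2 and 3, but 94.1%, 93.8% and 94.7% in DNMT3B KO. With the longest transcript as the length, the mean HCT116 share was 9.18% in place of 5.46%, and that of DNMT3B KO 96.6%. The pair was thus almost entirely RAB36 in HCT116 and almost entirely RAB34 in DNMT3B KO, and its summed level went from 1.71 ± 0.241 to 44.2 ± 1.84 CPM per kb. The log2 ratio of RAB34 to RAB36 counts, with 0.5 counts added to each, was −4.88 ± 0.714 in HCT116 and 3.32 ± 0.112 in DNMT3B KO. An exact two-sided permutation test of this difference of 8.20 gave p = 0.10, which is the smallest value that 20 assignments of 3 against 3 libraries allow.

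RAB25 and RAB11A, both of the recycling endosome, were lower in DNMT3B KO cells, whereas RAB11B did not pass the test. RAB25 is the epithelial member of the RAB11 family and returns integrins and other cargo to the surface. The gene (ENSG00000132698, chr1:156061160-156070504, plus strand, hg38) had 71.4, 94.7 and 71.1 CPM in HCT116 replicates 1, 2 and 3, against 51.0, 49.1 and 53.4 CPM in DNMT3B KO replicates 1, 2 and 3. The groups did not overlap, and HCT116 replicate 2 was above the other libraries of its line. The mean fell from 79.1 ± 13.5 to 51.2 ± 2.19 CPM, a log2 fold change of −0.63 (SE 0.13, adjusted p = 0.0076). The call held under every alternative tried, including the fits without HCT116 replicate 2. By level per kilobase, RAB25 was the fifth Rab gene in HCT116 (46.8 CPM per kb) and stood at rank 9 in DNMT3B KO (30.3 CPM per kb).

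RAB11A, which is expressed in most cell types, had 192.8, 194.5 and 194.9 CPM in HCT116 and 161.4, 153.2 and 165.8 CPM in DNMT3B KO. The difference was small but without overlap (log2 fold change −0.28, SE 0.08, adjusted p = 0.032). The call was lost without HCT116 replicate 1 (adjusted p = 0.11) and without DNMT3B KO replicate 1 (0.11), 2 (0.14) or 3 (0.088). RAB11B had 83.9 ± 0.00837 CPM in HCT116 cells and 76.3 ± 2.74 CPM in DNMT3B KO (log2 fold change −0.14, adjusted p = 0.22). RAB35, which also recycles cargo from endosomes, did not pass either.

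RAB25 made up a smaller part of its family in DNMT3B KO cells. Its share of the RAB11 family level per kilobase was 37.6%, 44.3% and 37.3% in HCT116 and 32.5%, 32.7% and 34.1% in DNMT3B KO, with no overlap between the lines. The mean share went from 39.7% ± 3.93 to 33.1% ± 0.874, that of RAB11A from 29.2% ± 1.88 to 30.8% ± 0.569 and that of RAB11B from 31.1% ± 2.05 to 36.1% ± 1.42. The log2 ratio of RAB25 to RAB11A counts was −1.31 ± 0.234 in HCT116 and −1.65 ± 0.015 in DNMT3B KO. The log2 ratio of RAB25 to RAB11B counts was −0.10 ± 0.236 and −0.58 ± 0.095. Both differences gave an exact permutation p of 0.10, again the smallest value possible, and the adjusted p over the 3 ratios compared was 0.10 for each. HCT116 replicate 2 decided much of their size. Without that library the differences were −0.20 and −0.34, against −0.34 and −0.48 with all libraries.

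**Figure D2:**
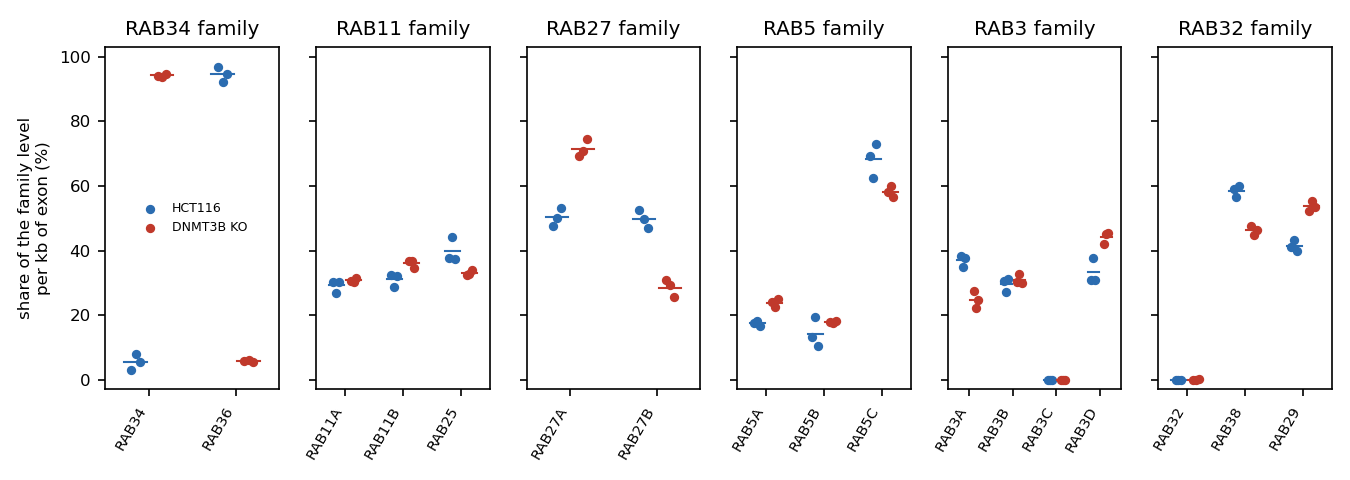
Share of each gene in the summed level per kilobase of its Rab family (%), with 1 point per library, lines at the means, HCT116 in blue and DNMT3B KO in red. RAB34 stands at 5.46% in HCT116 and 94.2% in DNMT3B KO, and RAB25 at 39.7% and 33.1%.

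Some epithelial markers were lower in DNMT3B KO, as was RAB25, and others were not. The summed level of the 8 epithelial markers ranged from 4388 to 5256 CPM in HCT116 libraries and from 2123 to 2310 CPM in DNMT3B KO libraries. Most of that sum was keratin: KRT8 had mean levels of 2178 and 1004 CPM, KRT18 1234 and 554.7 CPM, and KRT19 876.2 and 344.7 CPM. CDH1, the adhesion protein E-cadherin, was lower (log2 fold change −1.70), as were the keratins KRT8, KRT18 and KRT19, while EPCAM and the intestinal factor CDX2 did not pass. VIL1, the microvillus protein villin, went from 0.0841 to 1.05 CPM. It passed the filter only through DNMT3B KO and so had to differ. The part of these markers in the RAB25 result was not tested. Of markers of other cells, those of immune and blood cells summed to at most 0.655 CPM in any library, those of endothelium to at most 1.94 CPM. Those of fibroblasts summed to between 9.98 and 19.9 CPM in HCT116 and between 15.3 and 17.9 CPM in DNMT3B KO. LUM was at 0 in all libraries. Within these lists PDGFRB was higher in DNMT3B KO, from 0.314 to 2.45 CPM (log2 fold change 2.95, adjusted p = 0.00043). PTPRC went from 0.00523 CPM, near the detection limit, in HCT116 to 0.274 CPM in DNMT3B KO. It passed the filter only through DNMT3B KO, so that its call is no support for a change. COL1A1, which made up most of the fibroblast sum (15.3 and 13.7 CPM), did not pass, nor did KDR and VWF. The other markers of these lists were not tested.

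Among 12 tested Rabs of the endoplasmic reticulum and Golgi, 3 were higher, 2 were lower and 7 did not pass. The share called was 41.7%, beside 28.1% of all tested genes. The 2 lower genes encode the main Rabs of transport from the endoplasmic reticulum to the Golgi. RAB1B had 197.7, 190.3 and 208.8 CPM in HCT116 and 153.4, 151.9 and 151.8 CPM in DNMT3B KO (log2 fold change −0.39, SE 0.08, adjusted p = 0.0089). RAB1A had 159.7, 171.2 and 178.1 CPM in HCT116 and 124.5, 129.7 and 141.2 CPM in DNMT3B KO (log2 fold change −0.37, SE 0.09, adjusted p = 0.018). Neither gene overlapped between the lines, and RAB1B had the highest level per kilobase of all Rab genes in both lines, 102 and 78.1 CPM per kb. The call was lost for RAB1B without DNMT3B KO replicate 3 (adjusted p = 0.053) and for RAB1A without DNMT3B KO replicate 1 (0.091) or 2 (0.082). Their summed level fell from 153.2 ± 6.55 to 117.9 ± 2.26 CPM per kb.

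The genes of this group that rose were RAB36, described above, RAB30 and RAB33B. RAB30, a Rab of the Golgi stack, had 5.99, 5.50 and 5.36 CPM in HCT116 and 9.10, 9.19 and 8.58 CPM in DNMT3B KO. The libraries of each line lay close together and far from the other line (log2 fold change 0.67, SE 0.14, adjusted p = 0.0086). RAB33B, which recruits autophagy proteins from the Golgi, was the weakest Rab call (log2 fold change 0.45, adjusted p = 0.049). It was lost without HCT116 replicate 1 (adjusted p = 0.16) or 3 (0.067) and without DNMT3B KO replicate 1 (0.14), 2 (0.12) or 3 (0.12). RAB6A, RAB6B, RAB2A, RAB2B, RAB18 and RAB19, further Rabs of this group, did not pass. For RAB43 only 20.0% of the 50-base stretches were unique, because it shares its exons with a read-through transcript, so that its counts are uncertain.

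Among 12 early endosome Rabs, 1 was higher, 1 was lower and 10 did not pass (16.7% called, beside 28.1% of all tested genes). RAB5C, a Rab that drives fusion of early endosomes, had 154.8, 131.1 and 175.6 CPM in HCT116 and 99.8, 102.3 and 100.5 CPM in DNMT3B KO. The HCT116 libraries varied more than those of DNMT3B KO, but all were above them (log2 fold change −0.61, SE 0.11, adjusted p = 0.0057). Part of its exons overlaps another transcript on the same strand, and 75.1% of its 50-base stretches were unique. Its paralogs RAB5A and RAB5B did not pass (log2 fold changes 0.08 and −0.03). The share of RAB5C in the RAB5 family level per kilobase went from 68.2% ± 5.36 to 58.2% ± 1.62, and the RAB5 total from 81.5 ± 5.57 to 62.8 ± 1.24 CPM per kb.

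RAB24, a Rab linked to autophagy, had 4.40, 6.88 and 3.23 CPM in HCT116 and 11.8, 10.5 and 7.28 CPM in DNMT3B KO. DNMT3B KO replicate 3 was the lowest of its line and just above the highest HCT116 library (log2 fold change 1.02, SE 0.30, adjusted p = 0.036). The call was lost without HCT116 replicate 1 (adjusted p = 0.12), DNMT3B KO replicate 1 (0.13) or DNMT3B KO replicate 2 (0.11). RAB24 also shares part of its exons on the same strand with MXD3, which did not pass (log2 fold change 0.13, adjusted p = 0.62), and 61.8% of its 50-base stretches were unique. RAB4A, RAB4B, RAB20, RAB17, RAB21, RAB14, RAB22A and RAB31 did not pass, with log2 fold changes between −0.39 and 0.22.

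**Figure D3:**
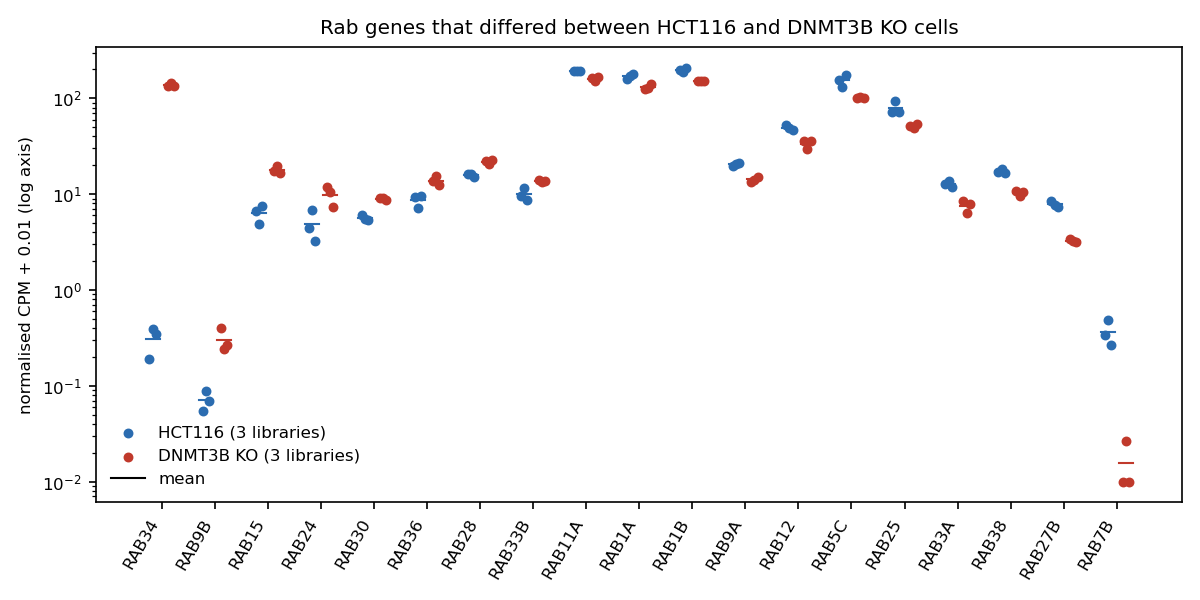
Normalised CPM (plus 0.01, log axis) of the 19 Rab genes called between the lines in each of the 6 libraries, ordered by fold change, with lines at the means (blue for HCT116, red for DNMT3B KO). RAB34 moves from 0.298 to 137.5 CPM. In each of the 19 genes the libraries of the lines do not overlap, beside 45.9% of all tested genes. The 19 genes were picked by a test on the same libraries, so this separation adds no support.

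Of 13 tested Rabs grouped under exocytosis and polarised secretion, 1 was higher, 3 were lower and 9 did not pass. The share called was 30.8%, beside 28.1% of all tested genes. RAB15 and RAB12, both also linked to recycling endosomes, were placed in this group. RAB15, which acts at recycling endosomes and is best known from neurons, had the clearest rise after RAB34 among Rabs above 1 CPM. It had 6.64, 4.92 and 7.60 CPM in HCT116 and 17.4, 19.5 and 16.6 CPM in DNMT3B KO. All DNMT3B KO libraries were more than double every HCT116 library (log2 fold change 1.48, SE 0.18, adjusted p = 0.00068). RAB27B, which docks secretory granules and multivesicular bodies at the plasma membrane, moved the other way. It had 8.46, 7.71 and 7.42 CPM in HCT116 and 3.37, 3.25 and 3.15 CPM in DNMT3B KO, with tight libraries and a wide gap (log2 fold change −1.27, SE 0.15, adjusted p = 0.00066).

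The RAB27 pair shifted towards RAB27A, the paralog that works in melanosomes and lytic granules. RAB27A had 12.6 ± 0.622 CPM in HCT116 cells and 13.02 ± 1.39 CPM in DNMT3B KO (adjusted p = 0.82). The share of RAB27B in the level per kilobase of the pair therefore went from 49.7% ± 2.78 to 28.5% ± 2.72, without overlap. The size of these shares depends on the length used, since RAB27A has 11345 bases as the union of exons and 4661 in its longest transcript. The longest transcript was not tried as the length for this pair. CCDC68, next to RAB27B on the side of higher coordinates, was lower as well, from 12.4 ± 1.95 to 4.51 ± 0.845 CPM (log2 fold change −1.46, adjusted p = 0.0011). DYNAP on the other side was higher and under 1 CPM in both lines, and it passed the filter only through DNMT3B KO. Of the 24 genes beside the 12 Rab genes called at 1.5-fold or more, 8 were called, beside the background of 28.1%, and 2 of these moved in the direction of the Rab gene.

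RAB3A, a Rab of regulated secretion and synaptic vesicles, had 12.8, 13.8 and 11.8 CPM in HCT116 and 8.53, 6.41 and 7.86 CPM in DNMT3B KO (log2 fold change −0.75, SE 0.15, adjusted p = 0.0082). RAB12, which directs receptors from recycling endosomes to lysosomes, had 53.3, 48.9 and 46.6 CPM against 35.7, 29.3 and 36.2 CPM (log2 fold change −0.56, SE 0.11, adjusted p = 0.0072). For both genes each HCT116 library was above each DNMT3B KO library. RAB10, which carries the glucose transporter GLUT4 to the surface and was among the 3 Rab genes of highest CPM, had 198.8 ± 12.4 CPM in HCT116 cells and 199.3 ± 11.7 CPM in DNMT3B KO (adjusted p = 0.98). RAB8A, RAB8B and RAB13, which serve the apical and basolateral surface of epithelia, did not pass, and neither did RAB3B and RAB3D, which share the secretory role of RAB3A.

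RAB26, which acts in granule maturation, had 12.98, 21.2 and 7.02 CPM in HCT116 and 7.43, 6.27 and 6.52 CPM in DNMT3B KO. Its paralog RAB37 had 8.96, 14.9 and 4.78 CPM in HCT116 and 7.29, 6.31 and 6.28 CPM in DNMT3B KO. In both genes HCT116 replicate 2 was highest and HCT116 replicate 3 lowest of that line, the lines overlapped, and neither passed (adjusted p = 0.061 and 0.31). RAB26 was called without the filter, with DESeq2 and without HCT116 replicate 3, and RAB37 was called in the last of these as well. The share of RAB26 in the level per kilobase of the pair nevertheless stayed within a narrow range in each line, 74.7% ± 0.337 in HCT116 and 67.5% ± 0.478 in DNMT3B KO.

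In late endosomes, lysosomes and related organelles, 6 Rab genes were tested, of which 3 were lower, 1 was higher and 2 did not pass. The share called was 66.7%, beside 28.1% of all tested genes. It includes RAB7B and RAB9B, each of which passed the filter through a single line. RAB7B, which returns cargo from late endosomes to the trans-Golgi, had 22, 30 and 13 counts in HCT116 and 0, 1 and 0 counts in DNMT3B KO. It was thus present at a low level in every HCT116 library and at or under the detection limit in every DNMT3B KO library. The ratio of the HCT116 to the DNMT3B KO level was 71.1, with an exact 95% counting interval from 12.3 to 2850, and rests on the single count in DNMT3B KO replicate 2, without which DNMT3B KO had 0 counts. The fitted log2 fold change, which depends on the prior count, was −5.66 with all libraries and −7.51 without DNMT3B KO replicate 2. RAB9B, which is the minor paralog of RAB9A, changed in the other direction, with 3, 5 and 3 counts in HCT116 and 28, 14 and 17 in DNMT3B KO (log2 fold change 2.24, SE 0.44). Both genes passed the filter through a single line, and their calls are no independent support for a change. Even so, it made up 1.15% ± 0.373 of the RAB9 level per kilobase in DNMT3B KO.

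RAB9A, which returns mannose 6-phosphate receptors from late endosomes to the trans-Golgi, had 19.7, 20.4 and 21.2 CPM in HCT116 and 13.5, 14.04 and 15.1 CPM in DNMT3B KO (log2 fold change −0.52, SE 0.11, adjusted p = 0.008). RAB38, which delivers enzymes to melanosomes and other lysosome-related organelles, had 16.98, 18.4 and 16.7 CPM in HCT116 and 10.8, 9.53 and 10.5 CPM in DNMT3B KO (log2 fold change −0.76, SE 0.12, adjusted p = 0.0023). Both were lower in every DNMT3B KO library. RAB29, a relative of RAB38 known as an activator of the kinase LRRK2, did not pass (33.6 ± 4.13 and 32.4 ± 0.491 CPM), and RAB38 went from 58.5% ± 1.66 to 46.3% ± 1.48 of their family level per kilobase. RAB7A, the main Rab of late endosomes and lysosomes and the Rab gene of highest CPM, had 292.8, 269.0 and 315.2 CPM in HCT116 and 243.3, 242.8 and 254.1 CPM in DNMT3B KO. The lines did not overlap, but the difference did not pass with all libraries (log2 fold change −0.25, adjusted p = 0.082). Without HCT116 replicate 2 it passed (adjusted p = 0.019).

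Of the called Rab genes, RAB3A, RAB15, RAB27B and RAB38 are prominent in neurons, secretory cells or melanocytes. RAB15 was higher and the others lower in DNMT3B KO. RAB27A, of melanosomes and lytic granules, did not pass, and neither did the secretory Rabs RAB3B, RAB3D, RAB26 and RAB37. The 5 markers of neural cells and melanocytes summed to between 3.87 and 6.42 CPM in HCT116 and between 8.20 and 9.29 CPM in DNMT3B KO, with MLANA and TYR at 0 in all libraries. SNAP25 was the only marker of the 5 that was called (log2 fold change 1.27, adjusted p = 0.0094). The part of such cells in these results was not tested.

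Summed over all Rab genes, the level per kilobase was 750.2, 770.8 and 777.1 CPM per kb in HCT116 and 696.6, 690.9 and 721.9 CPM per kb in DNMT3B KO. The share of all counts moved the other way, from a mean of 0.2776% to 0.2892%, and the increase of RAB34 is included in both sums. Of the 17 calls among Rab genes that passed the filter in both lines, 10 held under all 11 alternatives tried: RAB34, RAB15, RAB30, RAB27B, RAB38, RAB3A, RAB5C, RAB25, RAB12 and RAB9A.

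The proteins that load, switch and read Rabs were listed by function, and 139 of 140 listed genes were found in the tables. Of the 136 that could be tested, 18 were higher in DNMT3B KO, 34 were lower and 84 did not pass, so that 38.2% were called, beside 28.1% of all tested genes, with a median log2 fold change of −0.10. DENND1C, MLPH and MYRIP passed the filter only through the line in which they were higher and so had to differ. Of the other 133, 16 were higher and 33 lower (36.8%). In single fits without 1 library the number higher fell to 7, 6, 7 and 7 without HCT116 replicate 1 and DNMT3B KO replicates 1, 2 and 3. The number lower fell to 21, 22 and 22 without HCT116 replicate 1 and DNMT3B KO replicates 2 and 3. Other fits without 1 library gave up to 21 higher and up to 45 lower. Calls over all genes ranged from 3049 to 5924 in these fits, against 4761 with all libraries.

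Of 8 genes for prenylation and membrane extraction, 2 were higher and 1 lower (37.5% called, beside 28.1% of all tested genes). CHML, a Rab escort protein that presents new Rabs to the prenylating enzyme, rose in every library, from 22.7, 19.1 and 26.4 CPM in HCT116 to 48.3, 54.2 and 46.7 CPM in DNMT3B KO (log2 fold change 1.13, SE 0.13, adjusted p = 0.00057). RABIF, a Rab chaperone, was higher (log2 fold change 0.37, adjusted p = 0.043) and RABGGTB, a subunit of the prenylating enzyme, was lower (log2 fold change −0.28, adjusted p = 0.037). These 2 calls were lost without HCT116 replicate 1 (adjusted p = 0.17 and 0.12) and without DNMT3B KO replicate 1 (0.10 and 0.15), 2 (0.15 and 0.12) or 3 (0.11 and 0.092), and for RABGGTB also without HCT116 replicate 3 (0.069).

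Of 37 exchange factors, 3 were higher and 10 lower (35.1% called, beside 28.1% of all tested genes). Those of smallest adjusted p were all lower in DNMT3B KO: RIN3, which activates RAB5 and RAB31 (26.6 ± 2.77 to 13.6 ± 1.01 CPM, log2 fold change −0.97, adjusted p = 0.00075), its relative RINL (log2 fold change −1.42, adjusted p = 0.0024), DENND4C, which activates RAB10 (−0.50, adjusted p = 0.0029), and RIC1, of the exchange complex for RAB6A (−0.52, adjusted p = 0.005). DENND1C, named after its value was seen, was the exchange factor with the largest rise, from 0.290 ± 0.214 to 1.77 ± 0.151 CPM (log2 fold change 2.59).

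Of 36 tested GTPase activating proteins, 6 were higher and 8 lower (38.9% called, beside 28.1% of all tested genes). TBC1D1, an activating protein for RAB10 and other Rabs of GLUT4 transport, fell the most, from 82.8, 95.3 and 76.7 CPM in HCT116 to 14.1, 12.5 and 11.8 CPM in DNMT3B KO. The lines were far apart (log2 fold change −2.73, SE 0.12, adjusted p = 3.7e-06), while RAB10 itself did not pass. TBC1D8 was lower by −1.47 on the log2 scale (adjusted p = 0.00071), TBC1D2, which acts on RAB7A, by −0.998 (adjusted p = 0.00093), and USP6NL, which acts on RAB5, by −0.48 (adjusted p = 0.003).

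Of 55 tested effectors, 7 were higher and 15 lower (40% called, beside 28.1% of all tested genes). MLPH, or melanophilin, links RAB27A on melanosomes to the motor myosin Va and was almost absent from DNMT3B KO. It had 5284, 5012 and 3150 counts in HCT116 and 17, 3 and 7 in DNMT3B KO, or 73.6 ± 9.62 and 0.131 ± 0.0950 CPM (log2 fold change −9.06, SE 0.31). Only 49 of the 16959 tested genes had a lower log2 fold change. PLIN3, a lipid droplet protein that also binds RAB9A, was lower (298.1, 346.5 and 291.2 CPM against 142.5, 133.3 and 143.3 CPM, log2 fold change −1.16, adjusted p = 0.00011). SYTL3, a RAB27 effector (log2 fold change −1.10, adjusted p = 0.00016), and RUFY1, an effector of RAB4 and RAB14 on endosomes (−0.94, adjusted p = 0.00021), were lower too.

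Effectors of RAB27 were set apart after their values had been seen, and their count is a description. Of 9 tested, 4 were lower (MLPH, SYTL1, SYTL3 and SYTL4), 2 were higher and 3 did not pass (SYTL2, SYTL5 and EXPH5). RPH3AL, a listed effector left out of this set, did not pass either (log2 fold change −0.35, adjusted p = 0.22). Of all tested genes, 15.1% were lower and 12.9% higher. MLPH and MYRIP passed the filter only through the line in which they were higher, so that their calls add nothing to this comparison. The 2 higher genes were UNC13D, a priming factor of granule release, and MYRIP, which links RAB27A to myosin VIIa. MYRIP had 0.286, 0.628 and 0.119 CPM in HCT116 and 3.37, 3.84 and 3.05 CPM in DNMT3B KO (log2 fold change 3.28, SE 0.49). RIMS2, an effector of RAB3 at release sites that was also named after its value was seen, rose from 0.521 ± 0.192 to 2.07 ± 0.0521 CPM (log2 fold change 1.998, adjusted p = 0.0025).

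**Figure D4:**
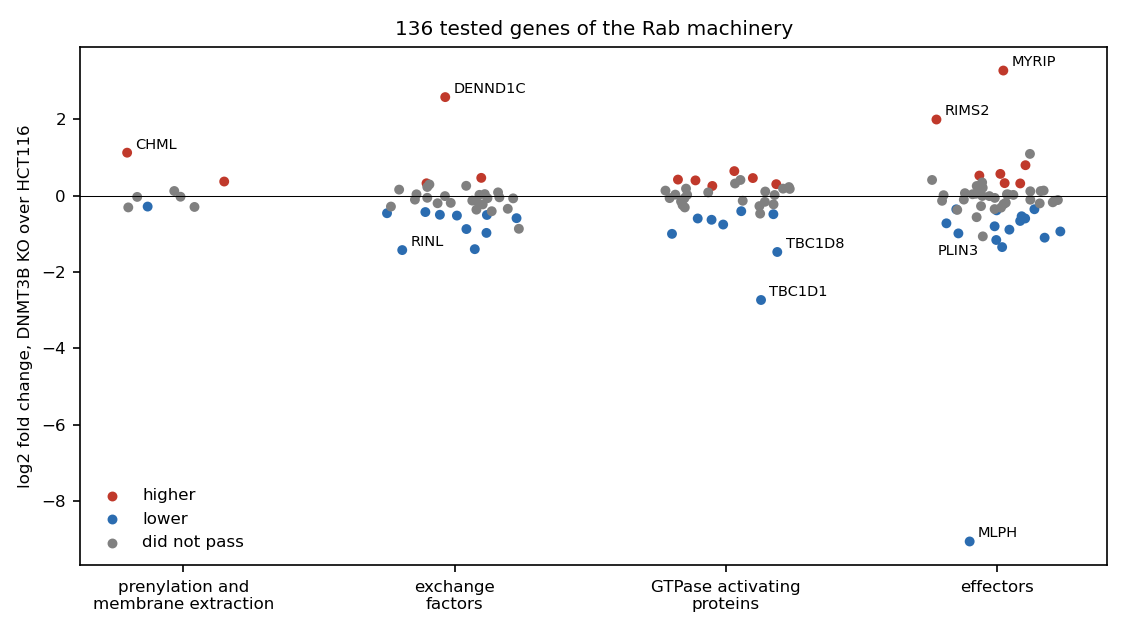
Log2 fold change, DNMT3B KO over HCT116, of the 136 tested genes that load, switch or read Rab proteins, 1 point per gene in 4 functional groups. Red points are called higher, blue points are called lower and grey points did not pass. MLPH lies at −9.06 and TBC1D1 at −2.73, and MYRIP is the highest point at 3.28.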

How the data were processed

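RNA was sequenced from 3 libraries each of HCT116 and DNMT3B KO cells (stranded mRNA kit, paired-end reads). The authors aligned reads to hg38 with STAR and quantified them with Salmon through nf-core/rnaseq 3.12.0 on Nextflow 23.04.2, with Ensembl 103 (GENCODE 37) genes, and deposited estimated counts, scaled for gene length, with 1 table per library. No table held totals or unassigned reads.

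The estimated counts were rounded, filtered with filterByExpr and normalised by TMM. Genotype was tested in R 4.3.3 with edgeR 4.0.16 (quasi-likelihood), with Benjamini-Hochberg adjustment across every gene that passed the filter. The SE of a log2 fold change was derived from the F statistic as |log2 fold change|/√F. CPM used the TMM library sizes, and levels per kilobase the union of exons in GENCODE 44, also the source of positions. Paralog ratios were tested by exact permutation. Counting intervals and the floor of 3 counts cover counting error alone, and reads are not independent molecules.

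The Rab genes and all lists were chosen with earlier results of these data known. Named genes were RAB34, RAB25 and their paralogs, all called Rab genes, the 3 Rab genes of highest CPM, those with no counts in a line, up to 4 called genes per machinery list by smallest adjusted p with at least 1 CPM, and DNMT3B. Other Rab genes are named to complete the counts of a role.

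Alternatives were RLE normalisation, no filter, DESeq2 1.42.0, an adjusted p under 0.01, a replicate block and leaving out each library. The longest transcript as length was tried for the family shares of RAB25 and RAB34 alone. In simulated counts over 16656 genes for this comparison, the share of true changes recovered by edgeR was 37.7% at 1.5-fold (69 genes), 75% at 2-fold (68 genes) and 96.8% at 4-fold (63 genes), beside 11 false calls. Only the 69, 68 and 63 genes given were changed there, whereas 4761 genes were called in the data. An adjusted p under 0.05 asks for a smaller p when fewer genes change, so these shares may not apply to the data. Recovery at the observed number of calls was not tested. A Rab gene that did not pass may still have changed.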

Additional observations from a re-analysis of the deposited data

How the results depend on the processing

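The Rab calls depended mainly on the threshold and on single libraries. At an adjusted p under 0.01, 6 Rab calls were lost, 4 Rab genes were higher, 6 machinery genes were higher and 20 lower, and 2648 of all tested genes were called. Without 1 library, the Rab genes higher ranged from 4 to 10 and lower from 9 to 15, the machinery genes higher from 6 to 21 and lower from 21 to 45, and all calls from 3049 to 5924. Such fits leave 1 line with 2 libraries. Of 380 combinations of a named gene and an alternative (the 10 at an unchanged threshold), 336 kept the direction and the side of the threshold, 37 lost the call, 1 (RAB7A) gained it and 6 changed sign, all for RAB10, whose log2 fold change was −0.001 with RLE, −0.004 with DESeq2 and between −0.039 and 0.06 without 1 library. DESeq2 called 8 Rab genes higher and 13 lower, and without the filter 7 were higher and 11 lower. The 380 combinations cover 38 genes, and Rab genes outside them also gained calls. These were RAB20 and RAB26 with DESeq2, RAB26 without the filter, and RAB3D, RAB6B and RAB43 without HCT116 replicate 2. Without HCT116 replicate 3 they were RAB4A, RAB17, RAB26 and RAB37. RAB11A and RAB33B lost their calls without the filter (adjusted p = 0.088 and 0.066). The log2 ratios of RAB25 to RAB11A, RAB25 to RAB11B and RAB34 to RAB36 differed between the lines by −0.41 to −0.20, −0.55 to −0.34 and 7.83 to 8.54 without 1 library, an alternative chosen after seeing the data. With the longest transcript as the length, the mean RAB25 share of its family was 43.5% in HCT116 and 36.6% in DNMT3B KO. The cause of these changes was not tested. The labels do not say whether libraries with the same replicate number shared more than the number. The correlations of their deviations from the line means were 0.135, −0.031 and 0.203. Those of libraries with unlike numbers lay between −0.232 and 0.159. With 3 libraries per line these values cannot decide it. A fit that took the replicate number as a block called 7 Rab genes higher and 10 lower, 15 machinery genes higher and 30 lower, and 4214 genes in all. Not every library correlated best with its own number. Counts limit statements on Rab genes with fewer than 10 counts per library.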
